A study of Homo sapiens with 12 samples.

Results

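The genes described here are 10 regulators of cell death and survival, the BCL2 family members BCL2, BCL2L1, MCL1, BCL2A1, BCL2L11, BMF, BAX and BBC3 and the inhibitor of apoptosis (IAP) genes BIRC2 and BIRC3. They were taken from a table of 31585 gene loci by their symbols alone, and each symbol was found on 1 locus. RNA was sequenced from 4 groups of A375 cells, a human melanoma line, with 3 libraries per group and 12 in all. The cells carried an empty MSCV-IRES-Hygro retroviral vector (Control) or the same vector with flag-tagged YAP-S127A, YAP-S94A,S127A or YAP-S127A,S381A, the last called YAP-2SA, and all were selected with hygromycin, so that each group is a selected population of 1 line. The series record gives 24 h between plating and lysis, whereas the published methods give a longer time. The condition field of the 3 YAP-2SA samples also lists S94A. Their titles do not, and the titles were followed. The sources used here do not state whether replicates came from separate infections, so the p-values measure the spread between these samples.

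Mitochondrial apoptosis is set by the balance of 3 kinds of BCL2 family protein. Pro-survival members (BCL2, BCL-XL encoded by BCL2L1, MCL1 and BCL2A1) hold pore-forming members such as BAX in check, and BH3-only members (BIM encoded by BCL2L11, BMF, and PUMA encoded by BBC3) bind and neutralise the pro-survival ones. The IAP proteins cIAP1 (BIRC2) and cIAP2 (BIRC3) are ubiquitin ligases that act in TNF receptor signalling and limit caspase-8 activation. In melanoma, MCL1 and BCL-XL are well-known survival factors and BCL2A1 is a known target of the melanocyte factor MITF. YAP is a transcriptional coactivator that binds DNA through TEAD factors. The S127A mutation removes the LATS site for cytoplasmic retention, S381A removes the LATS site for degradation, and S94A prevents TEAD binding.

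Values are FPKM, fragments scaled to transcript length and to mapped fragments, recovered from the deposited log2(FPKM + 1) scale. A locus was tested where its FPKM reached at least 1 in at least 3 libraries, which left 15055 loci and 7 of the 10 genes. BCL2A1, BMF and BIRC3 were below this filter. A gene was called higher or lower at a Benjamini-Hochberg adjusted p under 0.05 over all 15055 loci, from limma with all 12 libraries in the fit. Log2 fold changes are differences on the log2(FPKM + 1) scale and understate the change of genes with low FPKM. The read depth of the libraries is unknown, and 3 libraries against 3 cannot give a two-sided exact permutation p below 0.1 for a single gene.

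YAP1, the gene on the vectors, was at 130 to 187 FPKM in the 9 YAP mutant libraries. It was at 34.1 and 33.0 FPKM in Control replicates 1 and 2 and at 172 FPKM in the library labelled Control replicate 3, which therefore goes against its label in this gene. The values of the 10 genes in YAP-2SA against Control are also given without it. Among melanocyte markers, PMEL, MLANA, TYR and DCT stayed below 1 FPKM in every library, while SOX10 and S100B were at 263 and 46.9 FPKM on average in Control and at 6.16 and 0.807 FPKM in YAP-2SA. MITF was at 8.59 FPKM in Control and 35.0 FPKM in YAP-2SA. The 7 melanocyte markers summed to 281 to 345 FPKM in Control libraries and to 38.9 to 48.9 FPKM in YAP-2SA libraries. The 5 markers of other cell types summed to 6.24 to 7.75 FPKM in Control, most of it KRT14, and to 0.501 to 0.839 FPKM in YAP-2SA. PTPRC, CD3E, PECAM1 and EPCAM stayed below 0.15 FPKM. The part of these marker changes in the results was not tested, and in bulk RNA a change in the number of cells of a type and a change in RNA per cell cannot be told apart.

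The promoters of the genes were read for 2 short motifs, the TEAD core GGAATG and the AP-1 element TGACTCA, each looked for on both strands. Neither motif contains the other, and their matches in BBC3 lie apart. RefSeq windows of 300 bases, 250 before and 50 after a start site, were found for 9 of the 10 genes (12 windows, table build GRCh38.p14), and MCL1 had none. The TEAD core letters stood in 14.0% of all 35116 windows and the AP-1 letters in 4.95%. Among the 10 genes, BBC3 had both and the other 8 genes with a window had neither. Shown here, 5′ to 3′, are the bases upstream of every annotated exon for BCL2L1, which had the highest rise of the 10 genes, for BMF, which had the lowest YAP-2SA to Control ratio, and for BBC3, with motif letters in capitals. The last line is a short stretch of BBC3 around its TEAD core, which begins at position 43 after the start, whereas the AP-1 letters, printed as their reverse complement, begin 113 bases before it. Each sequence was matched exactly to the minus strand of GRCh37, at chr20:30311793-30312016 for BCL2L1, chr15:40401094-40401330 for BMF, chr19:47736024-47736174 for BBC3 and chr19:47735875-47735904 for the BBC3 core. A match of letters is a description of the sequence and not a binding site.
BCL2L1: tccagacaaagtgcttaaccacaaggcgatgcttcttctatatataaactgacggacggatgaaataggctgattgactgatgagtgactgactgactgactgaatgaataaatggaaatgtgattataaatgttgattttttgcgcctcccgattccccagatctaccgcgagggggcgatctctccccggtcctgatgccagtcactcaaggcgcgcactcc
BMF: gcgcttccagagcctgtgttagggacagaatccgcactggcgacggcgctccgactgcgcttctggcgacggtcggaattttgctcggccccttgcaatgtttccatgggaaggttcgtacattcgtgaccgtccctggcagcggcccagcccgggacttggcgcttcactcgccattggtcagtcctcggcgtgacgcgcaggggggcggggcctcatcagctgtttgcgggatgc
BBC3: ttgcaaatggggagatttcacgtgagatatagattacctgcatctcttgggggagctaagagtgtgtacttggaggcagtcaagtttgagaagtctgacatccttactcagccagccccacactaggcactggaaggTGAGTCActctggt
BBC3 core: aatgagaaactgaaaaagaaacGGAATGga

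BCL2L1 rose with each YAP mutant that can bind TEADs, 3.29-fold in YAP-2SA and 1.53-fold in YAP-S127A by group mean FPKM, and it was not called in YAP-S94A,S127A. The gene lies on chromosome 20 of GRCh37 (chr20:30252255-30311792, minus strand). Its level was 23.8, 24.8 and 26.6 FPKM in Control and 21.9, 21.9 and 22.1 FPKM in YAP-S94A,S127A. In YAP-S127A it was 33.3, 36.8 and 44.9 FPKM, and in YAP-2SA 79.0, 82.0 and 85.8 FPKM. No YAP-S127A library reached down to the Control range and no YAP-2SA library reached down to the YAP-S127A range, while every YAP-S94A,S127A library lay below every Control library. The log2 fold change against Control was 1.68 in YAP-2SA (SE 0.09, adjusted p = 1.25e-07 by limma), 0.59 in YAP-S127A (SE 0.09, adjusted p = 0.00321 by limma) and -0.18 in YAP-S94A,S127A (SE 0.09, adjusted p = 1.0 by limma, unadjusted p = 0.0761). Compared directly, YAP-2SA exceeded YAP-S127A by 1.09 on the log2 scale (adjusted p = 6.74e-06 by limma), and YAP-S127A exceeded YAP-S94A,S127A by 0.77 (adjusted p = 0.000428 by limma). YAP-2SA exceeded YAP-S94A,S127A by 1.86 (adjusted p = 5.32e-08 by limma). These constructs differ in both S94A and S381A, here and in the same comparison of other genes below. Leaving out the library labelled Control replicate 3, the rise in YAP-2SA was 1.72 (adjusted p = 1.13e-06 by limma) and that in YAP-S127A 0.63 (adjusted p = 0.00731 by limma). When the fit held just the 6 libraries of the contrast, the YAP-S127A rise had an adjusted p of 0.0616 by limma, at the same size.

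MCL1 was the most abundant pro-survival member in every group by FPKM, and it was lower in YAP-2SA than in Control. It lies on chromosome 1 (chr1:150533371-150552214, minus strand). Control libraries had 130, 152 and 133 FPKM and YAP-S94A,S127A libraries 126.7, 159 and 145 FPKM. YAP-S127A libraries had 112, 126 and 112 FPKM and YAP-2SA libraries 105, 110 and 109 FPKM. The YAP-2SA libraries all lay below the Control libraries, as did those of YAP-S127A, while YAP-S94A,S127A overlapped Control. The log2 fold change against Control was -0.35 in YAP-2SA (SE 0.09, adjusted p = 0.00879 by limma), -0.24 in YAP-S127A (adjusted p = 0.163 by limma) and 0.05 in YAP-S94A,S127A (adjusted p = 1.0 by limma). MCL1 was also lower in YAP-2SA than in YAP-S94A,S127A, by -0.40 (adjusted p = 0.00393 by limma). YAP-S127A and YAP-S94A,S127A differed by -0.29 (adjusted p = 0.0659 by limma). This difference had an adjusted p of 0.0281 by limma without YAP-S94A,S127A replicate 1 and 0.037 with median-ratio scaling. With each library left out in turn, its adjusted p ranged from 0.0281 to 0.191 by limma. Over the other alternatives it ranged from 0.0143 to 0.148. With the library labelled Control replicate 3 omitted, the YAP-2SA value was -0.38 (adjusted p = 0.0161 by limma).

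BCL2, the founding pro-survival member (chr18:60790579-60987361, minus strand), was low and was called in no comparison. It was at 1.85, 1.89 and 2.65 FPKM in Control, 1.58, 2.29 and 1.88 FPKM in YAP-S127A, 1.99, 2.01 and 1.94 FPKM in YAP-S94A,S127A and 2.08, 2.17 and 1.39 FPKM in YAP-2SA. All groups overlapped. The log2 difference between YAP-2SA and Control was -0.12, with a 95% interval from -0.43 to 0.19 by limma. Without the library labelled Control replicate 3 it was -0.01 (adjusted p = 0.976 by limma).

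BCL2A1 (chr15:80253234-80263538, minus strand) was below 1 FPKM in every library. It was at 0.532, 0.149 and 0.685 FPKM in Control, 0.666, 0.177 and 0.401 FPKM in YAP-S94A,S127A, 0.133, 0.239 and 0.189 FPKM in YAP-S127A and 0.0622, 0.138 and 0.0629 FPKM in YAP-2SA. The YAP-2SA libraries lay below the Control libraries, with the nearest pair at 0.138 and 0.149 FPKM, and the other mutants overlapped Control. In a fit without the filter, the log2 difference between YAP-2SA and Control was -0.40 (adjusted p = 0.0635 by limma), which did not pass the threshold. Leaving out the library labelled Control replicate 3, the difference was -0.29.

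**Figure D1:**
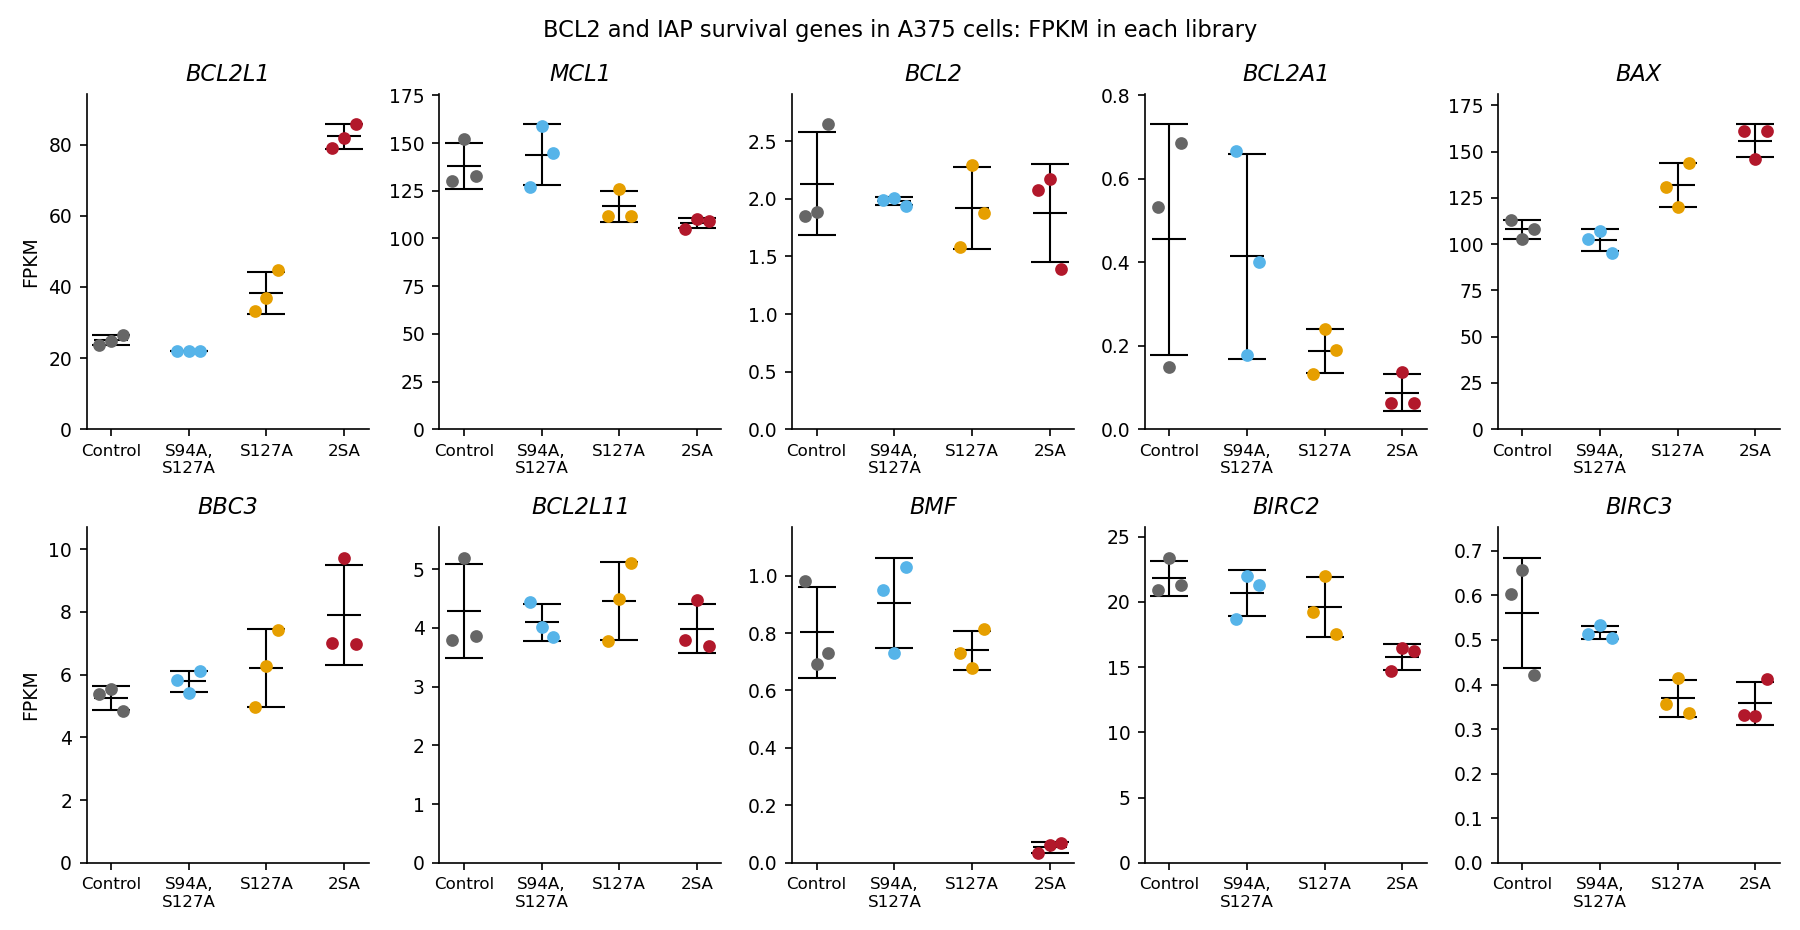
FPKM (y axis, linear from 0, one scale per gene) of each of the 10 genes in the 3 libraries of each group, with dots for libraries and bars for the mean and SD. BCL2L1 is at 79.0 to 85.8 FPKM in YAP-2SA against 23.8 to 26.6 FPKM in Control, and BMF is at 0.0324 to 0.0688 FPKM in YAP-2SA against 0.693 to 0.982 FPKM in Control.

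The 4 pro-survival genes together had 166 ± 11.9 FPKM (SD, n = 3) in Control, 157 ± 9.61 FPKM in YAP-S127A, 168 ± 16.1 FPKM in YAP-S94A,S127A and 192 ± 5.51 FPKM in YAP-2SA. BCL2L1 made up 15.1% ± 1.20 (SD, n = 3) of this sum in Control, 13.2% ± 1.26 in YAP-S94A,S127A, 24.3% ± 3.30 in YAP-S127A and 42.8% ± 0.907 in YAP-2SA. The share of MCL1 was 83.3% ± 1.70 in Control and 56.2% ± 0.624 in YAP-2SA. MCL1 thus exceeded BCL2L1 5.53-fold in Control and 1.32-fold in YAP-2SA on the FPKM scale. BCL2 held about 1% of the sum in each group (0.98% to 1.29%) and BCL2A1 at most 0.282% on average. With the library labelled Control replicate 3 omitted, the Control share was 14.6% for BCL2L1 and 84.2% for MCL1, and MCL1 exceeded BCL2L1 5.80-fold. BCL2L2, a pro-survival gene outside the 10, is not part of this sum. Its locus, shared with PABPN1, was at 70.2 FPKM in Control and 71.9 FPKM in YAP-2SA. The shares are given as a description of RNA per length, with no test, and say nothing of protein.

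**Figure D2:**
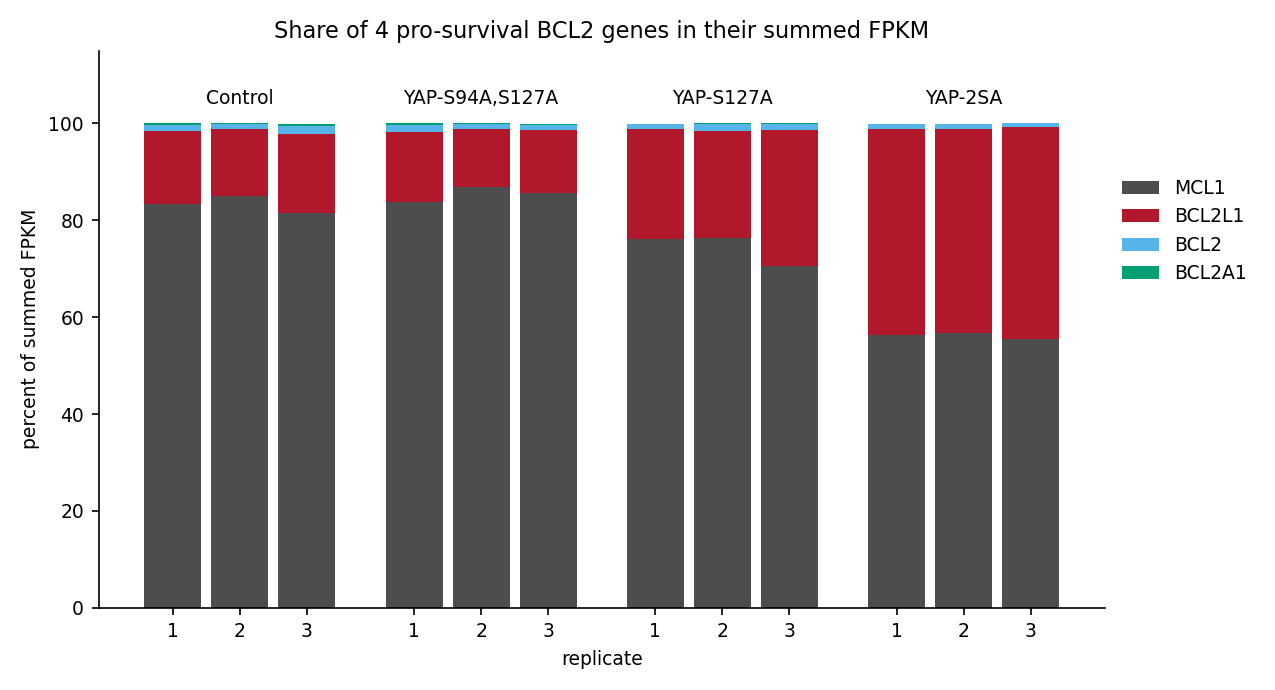
Share of MCL1, BCL2L1, BCL2 and BCL2A1 (y axis, percent of their summed FPKM) in each library (x axis, replicate number within group). The BCL2L1 share is 13.9% to 16.3% in Control libraries and 42.1% to 43.8% in YAP-2SA libraries, with YAP-S127A between them at 22.2% to 28.1%.

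BAX, the pore-forming member of the list, rose in YAP-2SA. It lies on chromosome 19 (chr19:49458072-49465055, plus strand). Its level was 113, 103 and 108 FPKM in Control and 103, 107 and 95.5 FPKM in YAP-S94A,S127A. It was 131, 120 and 144 FPKM in YAP-S127A and 161, 146 and 161 FPKM in YAP-2SA. Both TEAD-binding mutants lay above Control in every library, and YAP-2SA lay above YAP-S127A, while YAP-S94A,S127A overlapped Control. The log2 fold change against Control was 0.53 in YAP-2SA (SE 0.08, adjusted p = 0.00023 by limma), 0.28 in YAP-S127A (SE 0.08, adjusted p = 0.0558 by limma) and -0.08 in YAP-S94A,S127A (adjusted p = 1.0 by limma). Without the library labelled Control replicate 3 the YAP-2SA value was 0.53 (adjusted p = 0.00119 by limma). Without YAP-S127A replicate 2 the YAP-S127A value was 0.35 (adjusted p = 0.0259 by limma). With each library left out in turn, the adjusted p of the YAP-S127A value ranged from 0.0259 to 0.176 by limma. YAP-S127A exceeded YAP-S94A,S127A by 0.36 (adjusted p = 0.0128 by limma), which became 0.059 without YAP-S94A,S127A replicate 3. YAP-2SA exceeded YAP-S94A,S127A by 0.61 (adjusted p = 7.75e-05 by limma).

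The direct difference of BAX between YAP-2SA and YAP-S127A was 0.25 on the log2 scale (adjusted p = 0.0299 by limma). This call was lost without YAP-S127A replicate 1 (adjusted p = 0.0672 by limma), YAP-S127A replicate 2 (0.105), YAP-2SA replicate 1 (0.0932) or YAP-2SA replicate 3 (0.095). BCL2L1 rose more than BAX, and the ratio of BCL2L1 to BAX FPKM was 0.233 ± 0.0192 (SD, n = 3) in Control, 0.291 ± 0.0321 in YAP-S127A, 0.216 ± 0.0139 in YAP-S94A,S127A and 0.529 ± 0.0367 in YAP-2SA. Leaving out the library labelled Control replicate 3, the Control ratio was 0.226.

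The 3 BH3-only members of the list did not move together. BBC3, which encodes PUMA, a p53 target (chr19:47724079-47736023, minus strand), was at 5.39, 5.55 and 4.83 FPKM in Control and 4.95, 6.27 and 7.43 FPKM in YAP-S127A. It was at 5.84, 5.42 and 6.10 FPKM in YAP-S94A,S127A and 7.00, 9.73 and 6.96 FPKM in YAP-2SA. The YAP-2SA libraries lay above those of Control and YAP-S94A,S127A and overlapped those of YAP-S127A. The log2 fold change in YAP-2SA was 0.50 (SE 0.14, adjusted p = 0.0168 by limma). It was lost without the library labelled Control replicate 3 (0.45, adjusted p = 0.0589 by limma) and without YAP-2SA replicate 2 (0.35, adjusted p = 0.0602 by limma). Against YAP-S94A,S127A the difference of YAP-2SA was 0.38 (adjusted p = 0.0533 by limma), and against YAP-S127A it was 0.30 (adjusted p = 0.134 by limma). With each library left out in turn, the adjusted p of the first ranged from 0.0311 to 0.189 by limma. Over the other alternatives it ranged from 0.0355 to 0.0771. The values of YAP-S127A and YAP-S94A,S127A against Control were 0.19 and 0.12 (adjusted p = 0.511 and 1.0 by limma).

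BMF, whose product is held at the cytoskeleton until it is released to bind pro-survival proteins, was 14.8-fold lower in YAP-2SA than in Control by group mean FPKM. It lies on chromosome 15 (chr15:40380091-40401093, minus strand). Its level was 0.982, 0.693 and 0.729 FPKM in Control, 0.730, 0.677 and 0.813 FPKM in YAP-S127A and 0.951, 0.731 and 1.03 FPKM in YAP-S94A,S127A. In YAP-2SA it was 0.0324, 0.0614 and 0.0688 FPKM. All YAP-2SA libraries lay below those of the other groups, which overlapped one another. The gene was below the filter, so it had no test in the fit used elsewhere. In a fit without the filter, the log2 difference of YAP-2SA was -0.77 from Control, -0.72 from YAP-S127A and -0.85 from YAP-S94A,S127A (SE 0.08 each, adjusted p = 2.68e-05, 7.22e-05 and 1.23e-05 by limma). In the same fit, YAP-S127A and YAP-S94A,S127A differed from Control by -0.05 and 0.08 (adjusted p = 0.851 and 1.0 by limma). The study placed BMF among its downregulated signature genes, partly on these libraries, so this direction is not independent evidence. With the library labelled Control replicate 3 omitted, the YAP-2SA difference was -0.80.

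BCL2L11, which encodes BIM (chr2:111876955-111926021, plus strand), was called in no comparison. It was at 3.79, 5.20 and 3.86 FPKM in Control, 3.78, 4.50 and 5.10 FPKM in YAP-S127A, 4.45, 4.01 and 3.84 FPKM in YAP-S94A,S127A and 3.80, 4.48 and 3.70 FPKM in YAP-2SA. All groups overlapped. The log2 difference between YAP-2SA and Control was -0.08, with a 95% interval from -0.35 to 0.20 by limma. Without the library labelled Control replicate 3 it was -0.13 (adjusted p = 0.509 by limma).

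BIRC2 and BIRC3 lie next to each other on chromosome 11 and downstream of YAP1 (chr11:101981178-102104155), in a region that is amplified as a unit in some tumours. BIRC3 (chr11:102188215-102210134, plus strand) starts 84059 bases after the end of YAP1, and BIRC2 (chr11:102217942-102249401, plus strand) starts 7807 bases after the end of BIRC3. The YAP mutants of this study were carried on vectors, so the level of YAP1 in the mutants says nothing about copies of this region. BIRC2 was at 20.9, 23.4 and 21.3 FPKM in Control and 18.7, 22.0 and 21.3 FPKM in YAP-S94A,S127A. It was at 19.2, 22.0 and 17.5 FPKM in YAP-S127A and 14.7, 16.5 and 16.2 FPKM in YAP-2SA. The YAP-2SA libraries lay below every other library, and the remaining groups overlapped. The log2 fold change against Control was -0.44 in YAP-2SA (SE 0.09, adjusted p = 0.0028 by limma), -0.15 in YAP-S127A (adjusted p = 0.402 by limma) and -0.08 in YAP-S94A,S127A (adjusted p = 1.0 by limma). BIRC2 was lower in YAP-2SA than in YAP-S94A,S127A by -0.37 (adjusted p = 0.00834 by limma). Leaving out the library labelled Control replicate 3, the difference from Control was -0.46 (adjusted p = 0.00786 by limma).

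BIRC2 was also lower in YAP-2SA than in YAP-S127A, by -0.29 (adjusted p = 0.0349 by limma). This call was lost without YAP-S127A replicate 1 (adjusted p = 0.0673 by limma), YAP-S127A replicate 2 (0.122), YAP-2SA replicate 1 (0.117) or YAP-2SA replicate 3 (0.0659). BIRC3 stayed below 1 FPKM in every library, at 0.604, 0.656 and 0.421 FPKM in Control and 0.514, 0.533 and 0.504 FPKM in YAP-S94A,S127A. It was at 0.357, 0.415 and 0.335 FPKM in YAP-S127A and 0.331, 0.330 and 0.413 FPKM in YAP-2SA. Both TEAD-binding mutants lay below Control in every library, the nearest being the library labelled Control replicate 3, and they overlapped each other. In a fit without the filter the log2 difference from Control was -0.20 in YAP-2SA (adjusted p = 0.0233 by limma) and -0.19 in YAP-S127A (adjusted p = 0.123 by limma). With the library labelled Control replicate 3 omitted, these differences were -0.26 and -0.25.

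**Figure D3:**
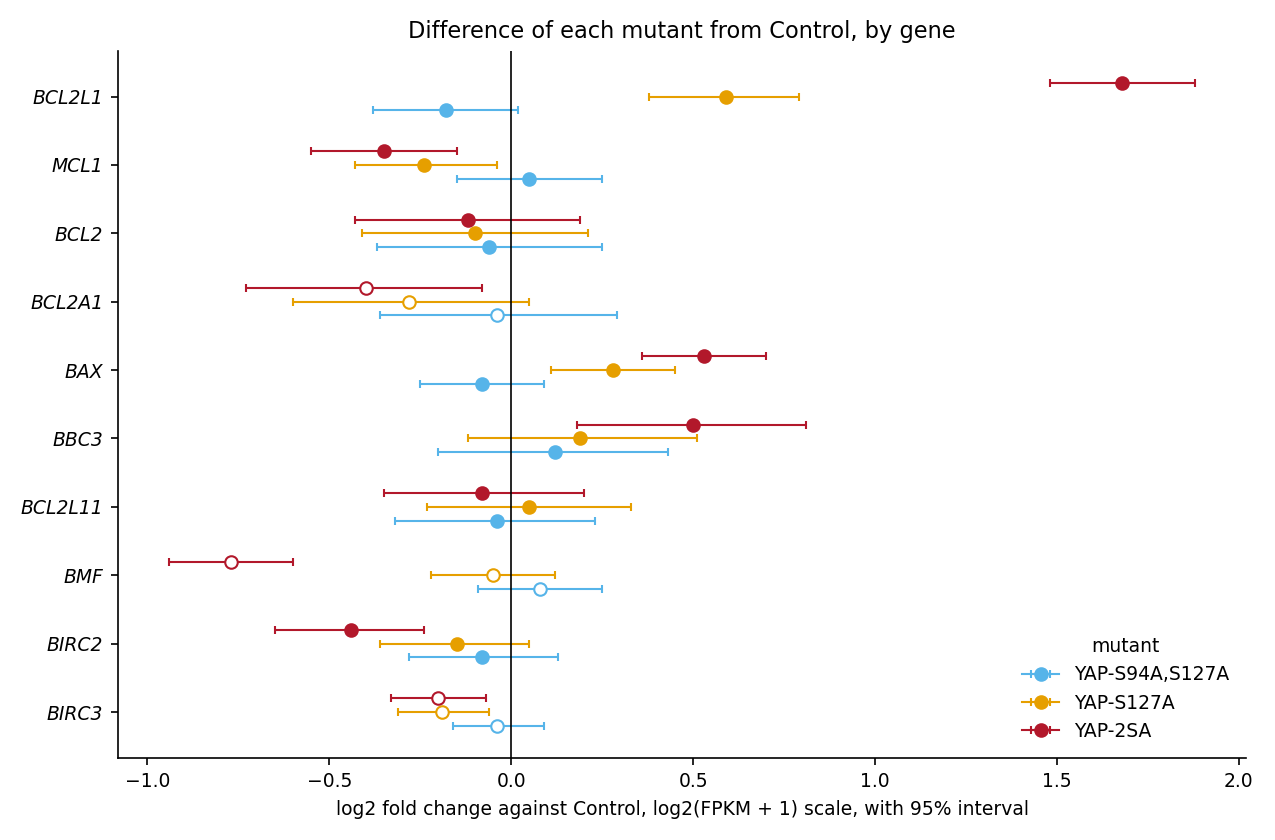
Log2 fold change against Control (x axis, log2(FPKM + 1) scale) of each gene in the 3 YAP mutants, with 95% intervals from limma. Open points are BCL2A1, BMF and BIRC3, which were below the filter and come from the fit without it. BCL2L1 stands at 1.68 in YAP-2SA and 0.59 in YAP-S127A, and the YAP-S94A,S127A intervals of all 10 genes include 0.

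Counted over the 7 genes tested, YAP-2SA against Control gave 3 higher (BCL2L1, BAX and BBC3) and 2 lower (MCL1 and BIRC2). Over all loci tested, 22.9% were called higher and 19.5% lower in this comparison. BCL2L1 was the 1 gene of the list that was both called higher and more than 2-fold higher by group mean FPKM, as were 7.59% of the loci tested. The median log2 fold change of the 7 genes was -0.08, against 0.01 over all loci. YAP-S127A against Control gave 1 higher (BCL2L1) and 0 lower, where 4.56% of all loci were higher and 1.75% lower. At an unadjusted p under 0.05 by limma, 2 were higher (BCL2L1 and BAX) and 1 lower (MCL1). Of all loci, 19.6% passed that limit in either direction. In YAP-S94A,S127A against Control limma called 0 of the 7, where 0.0864% of all loci were higher and 0.093% lower, and 0 had an unadjusted p under 0.05, as 4.39% of all loci did.

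Between the mutants, YAP-2SA against YAP-S127A gave 2 higher (BCL2L1 and BAX) and 1 lower (BIRC2), with 18.3% of all loci higher and 14.5% lower. YAP-S127A against YAP-S94A,S127A gave 2 higher (BCL2L1 and BAX) and 0 lower, with 6.36% and 4.31% of all loci. At an unadjusted p under 0.05 by limma, the same 2 were higher and 1 was lower (MCL1), where 3761 of 15055 loci passed in either direction. YAP-2SA against YAP-S94A,S127A gave 2 higher (BCL2L1 and BAX) and 2 lower (MCL1 and BIRC2), with 23.2% and 20.3% of all loci. The comparisons against Control share the Control libraries, so they are not independent of each other.

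In Control the order of levels by mean FPKM was MCL1 (138), BAX (108), BCL2L1 (25.0), BIRC2 (21.8), BBC3 (5.26), BCL2L11 (4.29), BCL2 (2.13), BMF (0.802), BIRC3 (0.561) and BCL2A1 (0.455). The libraries of BBC3 and BCL2L11 overlapped, as did those of BIRC3 and BCL2A1, and the other neighbours did not. In YAP-2SA the order by mean FPKM was BAX (156), MCL1 (108), BCL2L1 (82.3), BIRC2 (15.8), BBC3 (7.90), BCL2L11 (3.99), BCL2 (1.88), BIRC3 (0.358), BCL2A1 (0.0878) and BMF (0.0542), where the last 2 overlapped. BAX and MCL1 thus exchanged places between these groups, and in YAP-S127A, at 132 and 117 FPKM, their libraries overlapped.

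Of 40 other apoptosis genes, 35 were tested, and 12 were higher and 6 lower in YAP-2SA than in Control, where 22.9% of all loci were higher and 19.5% lower. BIK and HRK reached the filter only with their YAP-2SA libraries, since 0 Control libraries and 2 and 0 of the 9 libraries outside YAP-2SA had at least 1 FPKM, so their place among the 12 was decided in part by the filter, and both dropped out at a minimum of 5 FPKM. The median log2 fold change of the 35 genes was 0.15, against 0.01 over all loci. Besides BIK and HRK, CASP10, which was not called, also reached the filter only with YAP-2SA libraries. This median was therefore decided in part by the filter. The BH3-only and related genes were singled out after their values were seen. Among them, BAD, BID, PMAIP1, BNIP3 and BNIP3L were called higher, with log2 fold changes of 0.59 to 0.99. Of the BH3-only genes described above, BMF was below the filter and lower, and BCL2L11 was not called. BBC3 was called higher, but not without the library labelled Control replicate 3 or without YAP-2SA replicate 2. The 5 highest rises were in BOK, a BAX relative, from 4.54 to 16.8 FPKM (log2 fold change 1.68), BIK (0.593 to 3.72 FPKM, 1.56), HRK (0.588 to 2.29 FPKM, 1.02), BID, which links death receptors to mitochondria (11.0 to 22.7 FPKM, 0.99) and BAD (34.2 to 59.9 FPKM, 0.79). The adjusted p values of BOK, BID and BAD were 1.36e-06, 1.12e-07 and 5.13e-06 by limma, and none is given for BIK and HRK for the reason above. Without the library labelled Control replicate 3 the log2 fold changes of BOK, BID and BAD were 0.81 to 1.76. The BOK locus is shared with the transcript BC017214 and the BNIP3 locus with AK125699. With a pseudocount of 0.1 the log2 fold changes of BIK and HRK, both low in Control, were 2.46 and 1.74.

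The lowest values among the 6 that fell were those of TRAF1, CASP9, RIPK1, XIAP and BIRC6. TRAF1, an adaptor that binds cIAP1 and cIAP2, fell from 4.15 ± 1.96 to 0.214 ± 0.0321 FPKM (SD, n = 3), a log2 fold change of -2.02 (adjusted p = 3.91e-05 by limma). With a pseudocount of 0.1 this was -3.67, and without the library labelled Control replicate 3 it was -1.73. CASP9, the apoptosome caspase, changed by -0.45, RIPK1, a kinase of TNF receptor signalling, by -0.33, and the IAP genes XIAP and BIRC6 by -0.30 each. Their adjusted p values by limma were 0.00328, 0.00799, 0.0303 and 0.0259. Leaving out the library labelled Control replicate 3, the values of CASP9 and RIPK1 were -0.45 and -0.32. The XIAP call was lost without any 1 of Control replicate 1 (adjusted p = 0.0956 by limma), the library labelled Control replicate 3 (0.0578) or YAP-2SA replicates 1, 2 and 3 (0.0588, 0.086 and 0.0624). The BIRC6 call was lost without Control replicate 1 (adjusted p = 0.0766 by limma), the library labelled Control replicate 3 (0.0818) or YAP-2SA replicate 1 (0.0975).

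Within the 5 IAP genes of this second list, 4 were tested, with BIRC5 higher, XIAP and BIRC6 lower and NAIP not called. In YAP-S127A against Control, 1 of the 35 genes was higher (BOK, log2 fold change 0.49, adjusted p = 0.0427 by limma) and 0 were lower by adjusted p, with 4.56% and 1.75% of all loci. In YAP-S94A,S127A against Control limma called 0 of the 35, with 0.0864% of all loci higher and 0.093% lower. At an unadjusted p under 0.05 by limma, 6 genes were higher and 2 lower in YAP-S127A, where 19.6% of all loci passed in either direction, and 0 in YAP-S94A,S127A, where 4.39% did. Between YAP-2SA and YAP-S94A,S127A, 15 were higher and 5 lower, with 23.2% and 20.3% of all loci. The 15 include BIK and HRK, whose place was again decided in part by the filter.

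**Figure D4:**
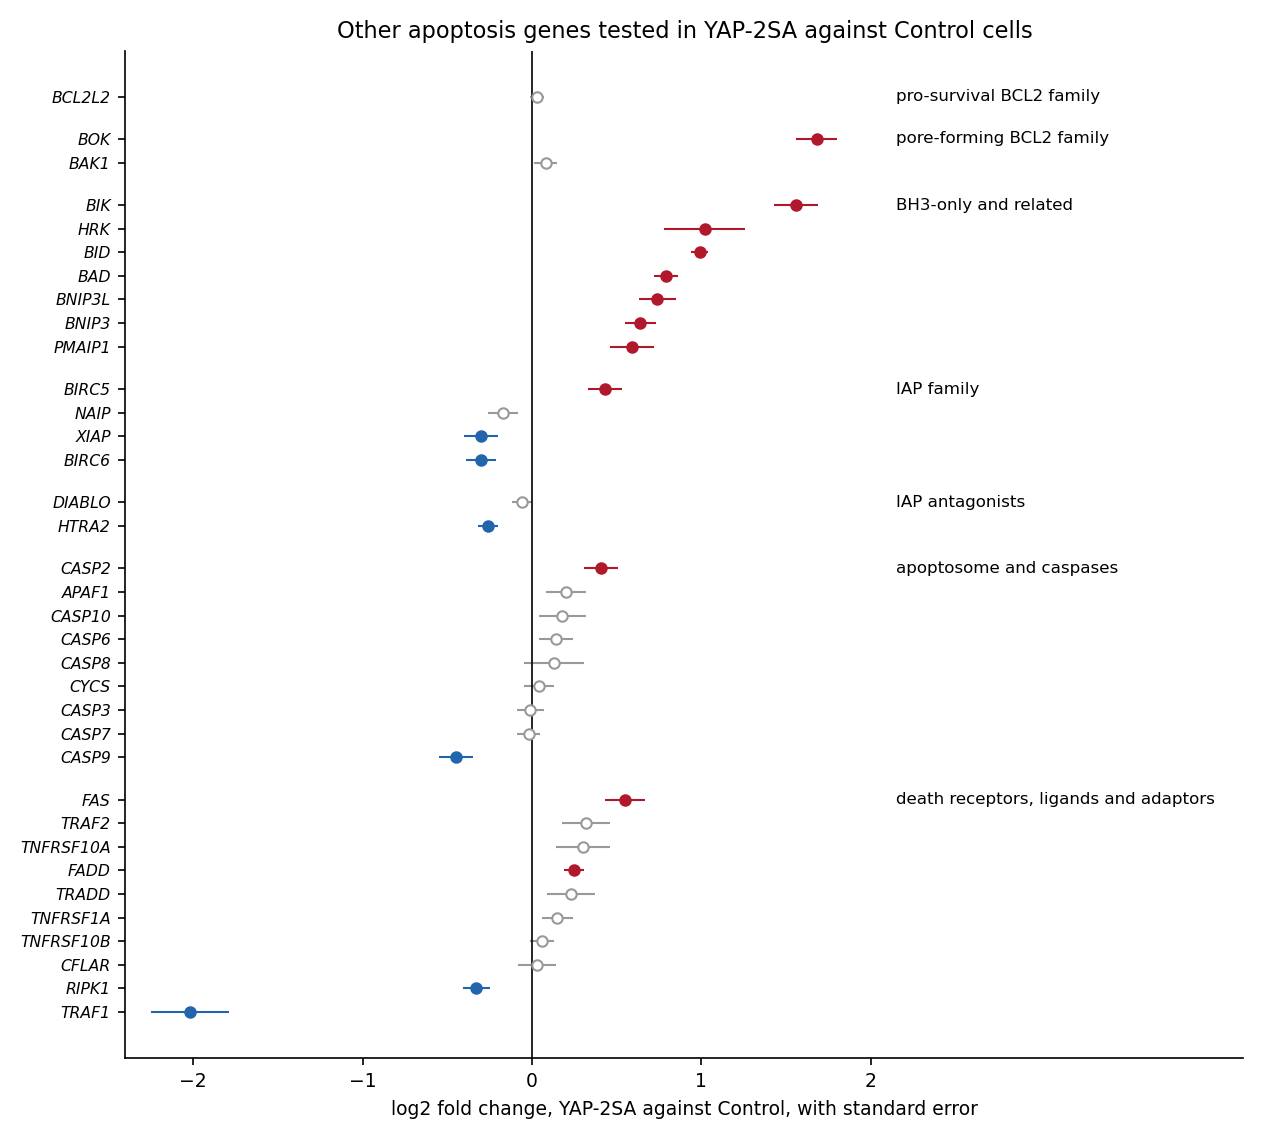
Log2 fold change between YAP-2SA and Control (x axis, log2(FPKM + 1) scale, with standard error) of the 35 other apoptosis genes tested, grouped by role. Filled red points mark the 12 called higher and filled blue points the 6 called lower, and open grey points were not called. BOK stands at 1.68 and TRAF1 at -2.02. BIK, HRK and CASP10 reached the filter only with their YAP-2SA libraries.

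For each of the 5 genes called in YAP-2SA against Control, the loci whose 12 centred log2 values came nearest were listed by root mean square difference. For BCL2L1 these were CYTH3 (0.104), MTSS1L (0.113) and GPNMB (0.118), and for BAX the locus AX747741,FXYD5 (0.0489), ARHGEF18 (0.0613) and FOXM1 (0.0629). For MCL1 they were SCYL3 (0.0547), TM2D3 (0.0561) and C7orf60 (0.0594), and for BIRC2 ATAD2B (0.0577), ZNF518B (0.0587) and TAF13 (0.0639). For BBC3 they were HSPA12A (0.0866), PAAF1 (0.0912) and ECI2 (0.0958). Likeness over 12 libraries of 4 groups is a description of these profiles.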

How the data were processed

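RNA of 12 A375 libraries (4 groups, 3 replicates each) was sequenced. Per the submitters' processing notes, bcl2fastq 2.15.0, Bowtie2 2.0.0, TopHat2 2.0.4 and Cufflinks 2.0.2 were used with hg19, and the authors deposited 1 table of log2(FPKM + 1) values per gene locus and library. How reads shared by several loci were divided is not given in the sources used here. FPKM already scales for length and mapped reads, keeps no counts, and leaves the read depth of each value unknown. FPKM summed to 790865 to 901558 per library. Of 31588 entries, 3 identical ones were removed, and no value column was left without a sample.

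FPKM was recovered by subtracting the pseudocount of 1. limma 3.58.1 (R 4.3.3) was fitted to the deposited log2 values of the 12 libraries, with a group term and the variance moderated along the mean level, and 6 comparisons were drawn from it. Loci with at least 1 FPKM in at least 3 libraries were tested. The fit was also run on simulated data, drawn as independent normal values. The simulated shifts were larger than the changes called for BAX, MCL1, BIRC2 and BBC3, so that run says nothing about calls of their size. The genes named are the 10 genes, YAP1, the 5 highest and 5 lowest called genes of an apoptosis list of 40, and the 3 loci nearest to each called gene, beside the 12 cell type markers. BCL2L2, BIRC5, CASP10, NAIP, PMAIP1, BNIP3 and BNIP3L were named after their values were seen. The genes and lists were chosen with earlier results of these data known. Coordinates come from GENCODE on GRCh37, the build of hg19, and promoter windows from RefSeq. Python 3.11.15, pandas 2.3.3 and matplotlib 3.10.9 made the summaries and plots. Alternatives were another pseudocount (0.1), no filter or a minimum of 5 FPKM, median-ratio or quantile scaling, only the 6 libraries compared, a replicate block, no trend, an adjusted p under 0.01, the sum of all loci with a symbol, and each library left out in turn.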

Additional observations from a re-analysis of the deposited data

How the results depend on the processing

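BCL2L1 stayed higher in YAP-2SA than in Control under every alternative run, with a log2 fold change of 1.58 to 1.72, as did BAX at 0.43 to 0.58, and MCL1 and BIRC2 stayed lower at -0.46 to -0.28 and -0.48 to -0.39. BBC3 kept its direction, at 0.35 to 0.57. No called value of these genes changed sign. Read depth is unknown, so what limits BCL2A1, BMF and BIRC3, all near or below 1 FPKM, beyond the spread of 3 libraries cannot be given.

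With no filter, 4 genes rather than 2 were lower in YAP-2SA against Control (BMF and BIRC3 added) and 2 rather than 1 in YAP-2SA against YAP-S127A (BMF added), where more loci are tested by construction. In fits of only the 6 libraries compared, which estimate the spread from fewer samples, the count higher in YAP-S127A against Control went from 1 to 0 (BCL2L1), YAP-2SA against YAP-S127A had 1 higher and 0 lower, and YAP-S127A against YAP-S94A,S127A had 1 higher. At an adjusted p under 0.01 these last 3 counts were also 1, 0 and 1. Calls over all 15055 loci fell as well. In the fits of 6 libraries, 349 loci rather than 687 were higher in YAP-S127A against Control. YAP-2SA against YAP-S127A had 2243 higher and 1782 lower rather than 2757 and 2179. YAP-S127A against YAP-S94A,S127A had 644 higher rather than 958. At an adjusted p under 0.01 the last 2 comparisons had 1761 higher, 1405 lower and 507 higher. Quantile normalization left 1 higher in YAP-2SA against YAP-S127A, where 2422 of all loci rather than 2757 were higher, and the cause was not tested. Median-ratio scaling gave 1 lower (MCL1) in YAP-S127A against YAP-S94A,S127A, where 725 of all loci rather than 649 were lower, and the cause was not tested. Both scalings also called BBC3 higher in YAP-2SA against YAP-S94A,S127A (adjusted p = 0.0355 and 0.0493 by limma). There 3244 and 3427 of all loci were higher, rather than 3490.

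With each library left out in turn, the counts higher and lower were 2 to 3 and 2 to 2 in YAP-2SA against Control, 1 to 2 and 0 to 0 in YAP-S127A against Control, 1 to 2 and 0 to 1 in YAP-2SA against YAP-S127A, 1 to 2 and 0 to 1 in YAP-S127A against YAP-S94A,S127A, and 2 to 3 and 2 to 2 in YAP-2SA against YAP-S94A,S127A. The apoptosis list kept 12 to 13 higher and 4 to 6 lower in YAP-2SA against Control, with BIK and HRK counted.

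The replicate block called MCL1 lower in YAP-S127A against Control (1 instead of 0, adjusted p = 0.0431 by limma) and against YAP-S94A,S127A (1 instead of 0, adjusted p = 0.0143 by limma), and left the other counts of the 10 genes as they were. Over all loci, 326 rather than 263 and 766 rather than 649 were lower in these comparisons. YAP-2SA against Control had 3641 higher and 3187 lower rather than 3443 and 2932. YAP-S94A,S127A against Control had 12 and 12 rather than 13 and 14. Same-numbered libraries of different groups correlated at -0.149 to 0.163 in their deviations from the group means, over 0.1 in 2 of 18 pairs. Different-numbered libraries correlated at -0.119 to 0.188, over 0.1 in 1 of 36 pairs. All pairs of replicate 1 libraries were positive, at 0.0344 to 0.126. The main fit did not pair the samples by number, and whether libraries of the same number share an effect was not tested.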
